A study of Homo sapiens with 5 samples.

Results

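snoRNA host genes are genes whose introns carry small nucleolar RNAs, and 7 of their loci were examined for SMAD2 binding: GAS5, SNHG1, EIF4A2, SNHG3, SNHG12, SNHG15 and SNHG16. A locus was the gene's span on hg19 in whole kb, plus 5 kb on each side. The loci were chosen by the identity of the gene with earlier summit scores and ranks of these same lists known, so their high scores are a description and no finding. The loci held 133 of the 233945 SMAD2 summits on chromosomes 1 to 22 and X. After chaining summits at most 200 bp apart, these made up 77 of 115321 regions.

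SMAD2 was mapped by ChIP-seq in T47D, an established human cell line of estrogen receptor-positive, luminal breast cancer. Of the 5 samples, 2 libraries came from cells given palbociclib at 1 µM for 24 h and Activin A at 50 ng/ml for 1.5 h, and are called palbociclib libraries here. The other 2 ChIP libraries came from cells given Activin A alone at the same dose and time, and are called activin libraries. An input library of untreated cells served the authors' peak calling and has no list analysed here. No ChIP library of cells without Activin A was analysed, so each value below describes stimulated cells.

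Activin A binds receptors that phosphorylate SMAD2, which then enters the nucleus with SMAD4 and binds DNA together with other factors. Palbociclib inhibits the kinases CDK4 and CDK6 and holds cells before S phase. snoRNAs of the box C/D class guide ribose methylation, and those of the box H/ACA class guide pseudouridylation, mainly of ribosomal RNA. In human cells most of them are cut out of the introns of a host transcript, so that host transcription supplies both the spliced RNA and the guides. Many host transcripts begin with a tract of pyrimidines, a feature shared with messengers of ribosomal proteins, and GAS5 was named for its RNA rising in growth-arrested mouse cells.

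The 7 host genes hold 35 snoRNA genes in RefSeq's GRCh38.p14 annotation, 23 of them named as box C/D and 11 as box H/ACA. GAS5 carries 11, of which 10 are box C/D, among them SNORD44, SNORD47 and SNORD74 to SNORD81. SNHG1 carries 9, including SNORD22 and SNORD25 to SNORD31. EIF4A2 carries 5, namely SNORD2, SNORA4, SNORA63, SNORA63B and SNORA81, and is the only protein-coding host of the 7. It encodes a helicase of translation initiation. SNHG12 carries 4 and SNHG16 carries 3 (SNORD1A, SNORD1B and SNORD1C). SNHG3 carries the pair SNORA73A and SNORA73B, and SNHG15 carries SNORA9 alone. SNHG3 and SNHG12 lie on chromosome 1 with 67 kb between their spans. On that annotation ZBTB37 lies at the 5′ side of GAS5 and SLC3A2, a subunit of amino acid transporters, at the 5′ side of SNHG1, both on the opposite strand. RFC4, a subunit of the clamp loader of DNA replication, lies at the 3′ side of EIF4A2 on the opposite strand, and RCC1, a regulator of the GTPase Ran, overlaps SNHG3 on the same strand. GAS5-AS1 overlaps GAS5 at its 3′ side, and TRNAU1AP overlaps SNHG12 at its 3′ side on the opposite strand. MYO1G lies at the 3′ side of SNHG15 on the same strand, and ST6GALNAC2 at the 3′ side of SNHG16, as does LOC122455342 on the opposite strand. On the 5′ side, LOC102723334 lies by SNHG15 and PRCD by SNHG16, both on the same strand as the host gene. These neighbours were not placed on hg19. Summits near such shared ends, among them those past the 3′ end of GAS5, cannot be given to one gene of a pair.

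The stretches around the transcript starts are shown because the strongest summits lay at the 5′ ends of all 7 loci. RefSeq's promoter table (GRCh38.p14) had 6 of the 7 members, and SNHG15 is named only. Each line runs 5′ to 3′ on the gene's strand from 40 bases before the start to base 30 of the transcript. Capitals mark the longest run of C or T between position −10 and position 30, counted from the annotated start.
GAS5, chromosome 1, minus strand: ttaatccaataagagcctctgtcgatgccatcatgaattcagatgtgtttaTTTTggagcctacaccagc
SNHG1, chromosome 11, minus strand: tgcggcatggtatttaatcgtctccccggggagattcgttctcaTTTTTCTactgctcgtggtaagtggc
EIF4A2, chromosome 3, plus strand: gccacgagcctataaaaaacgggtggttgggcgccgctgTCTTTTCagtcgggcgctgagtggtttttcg
SNHG3, chromosome 1, plus strand: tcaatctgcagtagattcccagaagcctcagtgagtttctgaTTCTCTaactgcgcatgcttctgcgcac
SNHG12, chromosome 1, minus strand: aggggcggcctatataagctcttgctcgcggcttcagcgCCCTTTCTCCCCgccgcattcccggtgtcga
SNHG16, chromosome 17, plus strand: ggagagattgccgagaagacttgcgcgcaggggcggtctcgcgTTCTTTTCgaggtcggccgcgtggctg

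A run of at least 6 pyrimidines lay in that stretch in 5 of the 6 promoters, against 35.8% of 27305 RefSeq promoters. The run was 12 bases in SNHG12, 8 in SNHG16, 7 in EIF4A2 and SNHG1 and 6 in SNHG3, and in GAS5 the longest run was 4. Only 1 annotated start per gene was read, so a tract at any other start, of GAS5 or another gene, would be missed. The transcript began with 5 pyrimidines at the annotated start in EIF4A2 and SNHG12, 2 of 6, against 5.22% of promoters. The letters CAGAC or GTCTG, the longer form of the SMAD-binding element, occurred within the 300 bases of 2 of 6 promoters, those of SNHG3 and EIF4A2, against 45.0% of all promoters. GGCGCC, a GC-rich SMAD motif, occurred in EIF4A2 alone, 1 of 6, against 19.0%. The copies that lay before the start are shown here in capitals, with GGCGCC at position −11 of EIF4A2 and CAGAC at position −187 of SNHG3.
EIF4A2, positions −51 to 20, chromosome 3, plus strand: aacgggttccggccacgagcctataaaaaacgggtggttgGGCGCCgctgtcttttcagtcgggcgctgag
SNHG3, positions −227 to −143, chromosome 1, plus strand: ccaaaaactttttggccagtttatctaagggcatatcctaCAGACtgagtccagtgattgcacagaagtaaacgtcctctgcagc

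The shorter core AGAC or GTCT, which the longer form contains, was in 4 of 6 promoters, against 84.1% of all. TGANTCA, bound by AP-1, and CACGTG, bound by MYC, were in 0 of 6, against 7.76% and 7.43%. TTCCGG or CCGGAA, the core of ETS sites, was in EIF4A2 and SNHG16, 2 of 6, against 17.6%. CCAAT or ATTGG, bound by NF-Y, was in GAS5 alone, 1 of 6, against 35.7%. Both strands were read for every motif. With 6 promoters these shares are descriptions, and a match is not a bound site.

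The score of a summit is the authors' own value, read as −log10 of the q-value given against the input. Scores grow with read depth, and the depth of the libraries is unknown, so lists were compared by rank (1 is the highest score), by percent rank (the rank as a percentage of the list's length) or by the share of one score in another of the same list. Raw scores are printed to describe a list. The score at the strongest 1% was 269 and 238 in the palbociclib lists and 188 and 195 in the activin lists, higher in both palbociclib lists. Palbociclib replicates 1 and 2 listed 62960 and 65207 summits, and activin replicates 1 and 2 listed 51535 and 54243. The lowest score kept was 1.33 and 1.34 in the palbociclib lists and 1.34 and 1.31 in the activin lists. All group comparisons are 2 libraries against 2, where the exact two-sided permutation test cannot give a p below 0.333, so none could pass 0.05.

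Every one of the 7 loci had its strongest SMAD2 summit at its 5′ end, in every library. The 28 strongest summits lay 403 to 919 bp inside the 5′ end of the span, which is itself known only to the kb. This held for the 3 genes on the plus strand (EIF4A2, SNHG3 and SNHG16) and for the 4 on the minus strand, so the summits stood at the low-coordinate end of a plus-strand span and at the high-coordinate end of a minus-strand one. EIF4A2 summits lay on chromosome 3 from 186501403 to 186501438, GAS5 summits on chromosome 1 from 173837089 to 173837096, and SNHG1 summits on chromosome 11 from 62623326 to 62623334. Those of SNHG15 lay on chromosome 7 from 45026209 to 45026234 and those of SNHG16 on chromosome 17 from 74553891 to 74553919. On chromosome 1, SNHG3 summits lay from 28832526 to 28832589 and SNHG12 summits from 28908322 to 28908353. The 4 libraries thus placed the summit within 7 bp of each other at GAS5, 8 bp at SNHG1 and at most 63 bp, at SNHG3. Their median range of 28 bp was close to the 27 bp of all 491 regions within the strongest 1.5% of every list, and below the 76 bp of all 23476 regions found in every library.

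**Figure D1:**
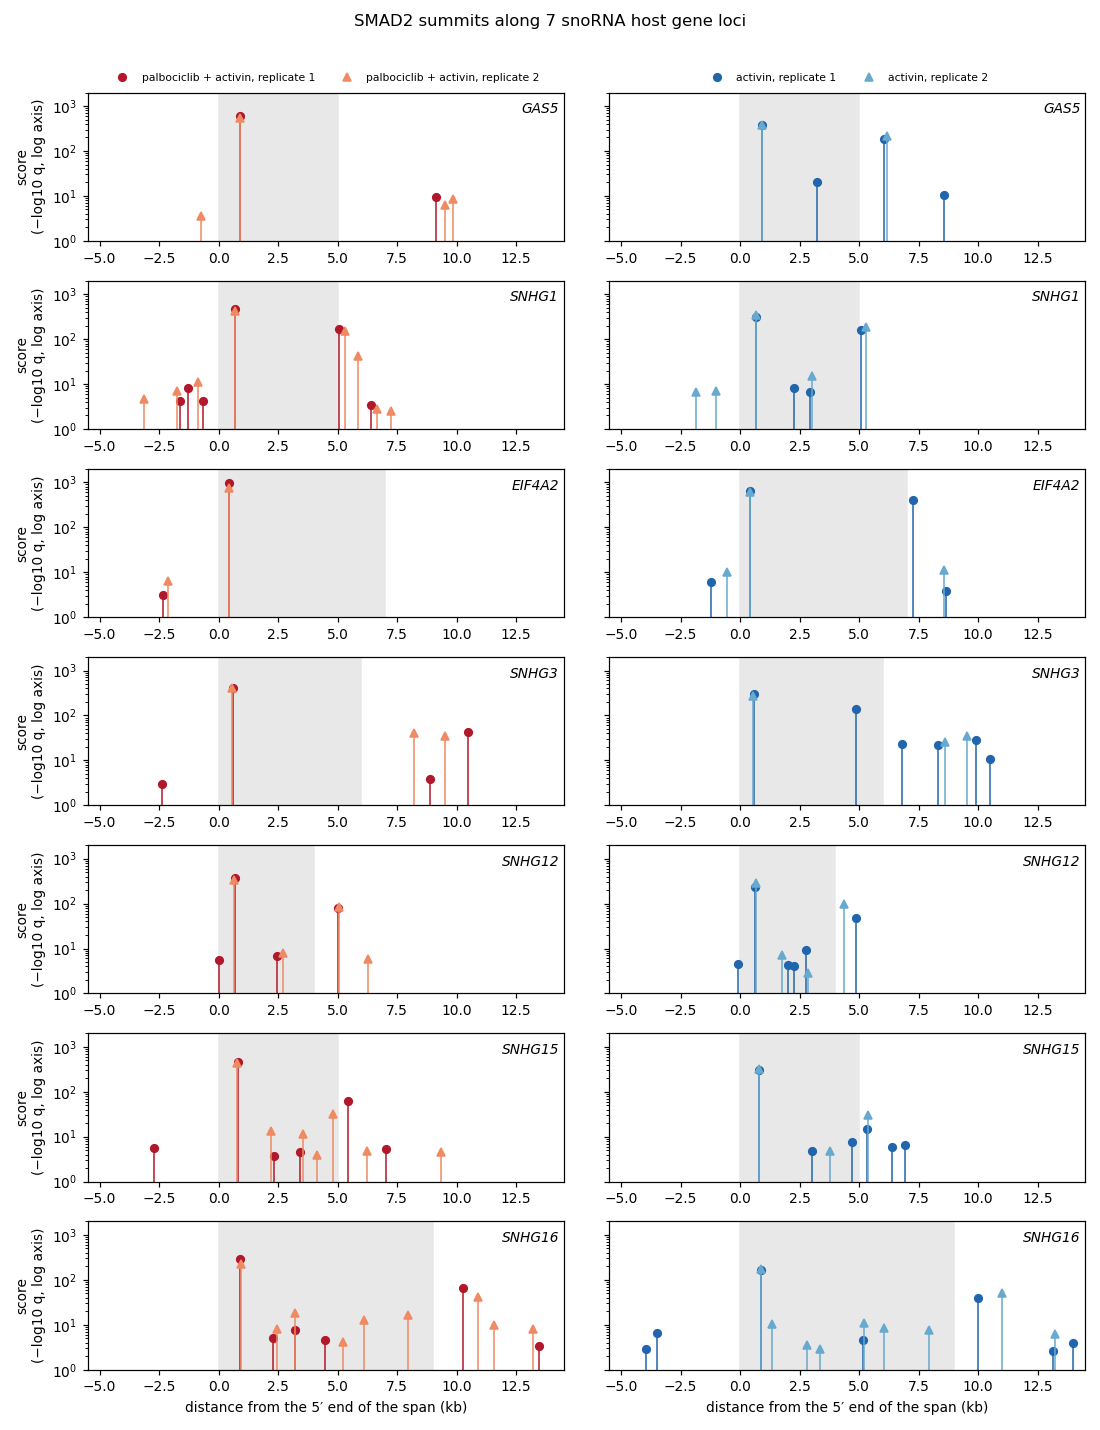
Score of each SMAD2 summit (−log10 q, log axis) against its distance from the 5′ end of the gene's span in kb, in the direction of transcription, for the 7 loci. Palbociclib libraries are on the left and activin libraries on the right, circles are replicate 1, triangles replicate 2, and grey marks the span. The tallest summit stands 403 to 919 bp inside the span's 5′ end in every panel, and the span ends are known only to the kb.

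The 5′ summits were by far the strongest part of the loci. Of the 34 summits within 1 kb of a 5′ end, 28 ranked within the strongest 5% of their list, and their median percent rank was 0.247%. The 13 summits further upstream had a median percent rank of 67.4% and the 36 further inside the spans one of 56.7%. The 50 summits past the 3′ ends lay between, with a median of 26.7%. Per kb and library there were 0.607 summits within 1 kb of the 5′ ends, 0.265 inside the spans, 0.357 past the 3′ ends and 0.116 upstream. The 7 regions found in all 4 libraries were the 7 at the 5′ ends, 1 at each locus, 9.09% of the 77 regions of the loci, against 20.4% of all regions.

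The loci differed in the rank of this summit, with EIF4A2 first, GAS5 next and SNHG16 last in every list. At EIF4A2 the strongest summit ranked 7 and 18 in the palbociclib libraries, against 17 and 19 in the activin libraries, with scores of 949 and 754 against 641 and 624. EIF4A2 stood first of the 7 loci in each library. GAS5 followed with ranks 52 and 51 in the palbociclib libraries, against 65 and 71 in the activin libraries, with scores of 613 and 529.7 against 384 and 386. At SNHG1 the ranks were 104 and 101 in the palbociclib libraries, against 111 and 99 in the activin libraries. The ranges over libraries of EIF4A2, of GAS5 and of the other loci did not overlap. SNHG15 ranked 118 and 81 in the palbociclib libraries, against 131 and 117 in the activin libraries, so SNHG15 could not be ordered against SNHG1, nor against SNHG3. SNHG3 itself ranked 168 and 116 in the palbociclib libraries, against 124 and 211 in the activin libraries. SNHG12 ranked 210 and 214 in the palbociclib libraries, against 270 and 170 in the activin libraries, and its spread overlapped that of SNHG3. SNHG16 was last and stood clear of the others, with ranks of 508 and 734 in the palbociclib libraries, against 731 and 714 in the activin libraries.

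**Figure D2:**
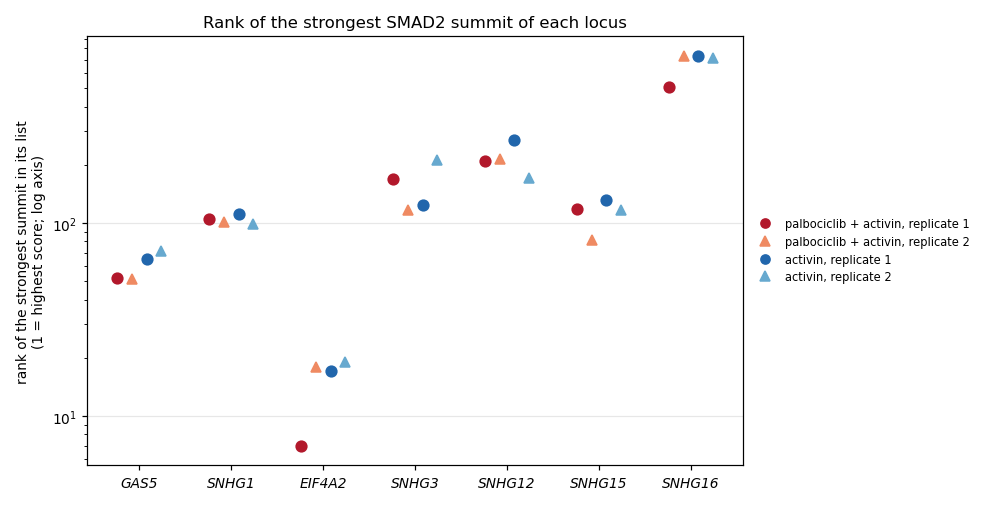
Rank of the strongest SMAD2 summit of each locus within its own list (log axis, 1 is the highest score), one point per library, palbociclib libraries in red left of activin libraries in blue. EIF4A2 ranks 7 to 19 and SNHG16 ranks 508 to 734, and among the 7 loci both palbociclib points lie below both activin points at GAS5 alone.

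These ranks lie high in the lists, which is what the members were known for. All 7 loci had a summit within the strongest 1.5% of each list, a limit set after their ranks were known. Of 41851 windows of 15 kb with a summit in some library, 2.22% and 2.29% held such a summit in the palbociclib libraries and 1.80% and 1.90% in the activin libraries. A locus spanned 14 to 19 kb. The edge of the loci was quiet: the 3 summits lying 4.5 to 5 kb from a span scored 3.93 to 8.61, and the 6 lying 5 to 5.5 kb from one scored 2.79 to 23.0. The nearest region outside SNHG1 within the strongest 1.5% of every list lay 14.3 kb from its 5′ summit, on chromosome 11 at 62609004 to 62609067, with ranks of 2 and 3 in the palbociclib libraries and 1 and 3 in the activin libraries. For SNHG3 that neighbour was the SNHG12 summit itself, 75.7 kb away. For GAS5 it lay 1510 kb away.

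The 5′ summits were present under both treatments, and fewer of them differed in rank beyond overlap when the lists were cut to one length. In percent rank the strongest summit stood higher in both palbociclib libraries than in both activin libraries at 5 of 7 loci (GAS5, SNHG1, EIF4A2, SNHG15 and SNHG16) and lower at 0 of 7. Over all 20509 windows of 15 kb with a summit in every library, the same was true of 39.7%, and the reverse of 8.78%. Percent ranks improve in a longer list if the added summits are weak. With each list cut to its highest 51535 summits, the count fell to 1 of 7, GAS5, against 22.0% of windows. The mean rank in the list was higher with palbociclib at 7 of 7 loci. The share of all windows with a higher mean rank was not computed, so this count has no background. In the single libraries the plain ranks overlapped between the treatments at every locus but GAS5. The means ran from 102.5 in the palbociclib libraries against 105.0 in the activin libraries at SNHG1 to 621 against 722.5 at SNHG16. At GAS5 the percent rank averaged 0.0804% ± 0.0031 in the palbociclib libraries and 0.129% ± 0.0034 in the activin libraries (SD, n = 2 each), with an exact permutation p of 0.333. At SNHG16 it averaged 0.966% ± 0.226 in the palbociclib libraries and 1.37% ± 0.072 in the activin libraries (SD, n = 2 each, exact permutation p = 0.333). At SNHG3 and SNHG12 the groups overlapped.

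The number of summits in the loci overlapped between the treatments. Palbociclib replicates 1 and 2 had 30 and 37 summits in the 7 loci, against 37 and 29 in activin replicates 1 and 2. The means were 33.5 ± 4.95 in the palbociclib libraries and 33.0 ± 5.66 in the activin libraries (SD, n = 2 each), a ratio of 1.01, with an exact permutation p of 1. The full lists differed by a ratio of 1.21. As a share of the list, the loci took 0.0477% (95% interval 0.0322 to 0.0680) and 0.0567% (0.0400 to 0.0782) of palbociclib summits, against 0.0718% (0.0506 to 0.0990) and 0.0535% (0.0358 to 0.0768) of activin summits. These exact Clopper-Pearson intervals, which cover counting error only, overlapped between all 4 libraries.

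Of the 7 loci, SNHG1 and EIF4A2 alone had counts that did not overlap between the treatments, and in opposite directions. SNHG1 had 6 and 8 summits in the palbociclib libraries, against 4 and 5 in the activin libraries (exact permutation p = 0.333). EIF4A2 had 2 and 2 summits in the palbociclib libraries, against 4 and 3 in the activin libraries (exact permutation p = 0.333). More summits in both palbociclib libraries was thus found at 1 of 7 loci, against 11.3% of 41851 windows of 15 kb, and fewer at 1 of 7, against 2.69%. The windows held a median of 1 summit in each library, against medians of 3 to 6 at the loci. The shares are therefore not like for like. GAS5 had 2 and 4 summits in the palbociclib libraries and 4 and 2 in the activin libraries. SNHG15 had 6 and 7 summits in the palbociclib libraries, against 6 and 3 in the activin libraries, and SNHG16 had 6 and 9 against 7 and 9. SNHG3 had 4 and 3 in the palbociclib libraries, against 6 and 3 in the activin libraries, and SNHG12 had 4 and 4 against 6 and 4. The treatments overlapped at these 5 loci.

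The interiors of the spans, from 1 kb past the 5′ end to the 3′ end, held mostly low-ranking summits. Their density of 0.265 per kb and library lay above the 0.0821 to 0.104 of the 15-kb windows. EIF4A2 had no summit there in any library, and GAS5 and SNHG3 had 1 each, both in activin replicate 1, with scores of 19.96 and 141. At SNHG1 the interior was empty in both palbociclib libraries, against 2 and 1 summits in the activin libraries, with scores of 6.60 to 15.0. The surplus of palbociclib summits at SNHG1 lay outside it: 2 and 4 past the 3′ end in the palbociclib libraries, against 1 and 1 in the activin libraries, and 2 and 2 within 1 kb of the 5′ end, against 1 and 1. SNHG16, the longest of the 7 genes, had 3 and 5 interior summits in the palbociclib libraries, against 1 and 6 in the activin libraries, none scoring above 18.8. SNHG15 had 2 and 4 interior summits in the palbociclib libraries, against 2 and 1 in the activin libraries, and SNHG12 had 1 and 1 against 3 and 2.

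**Figure D3:**
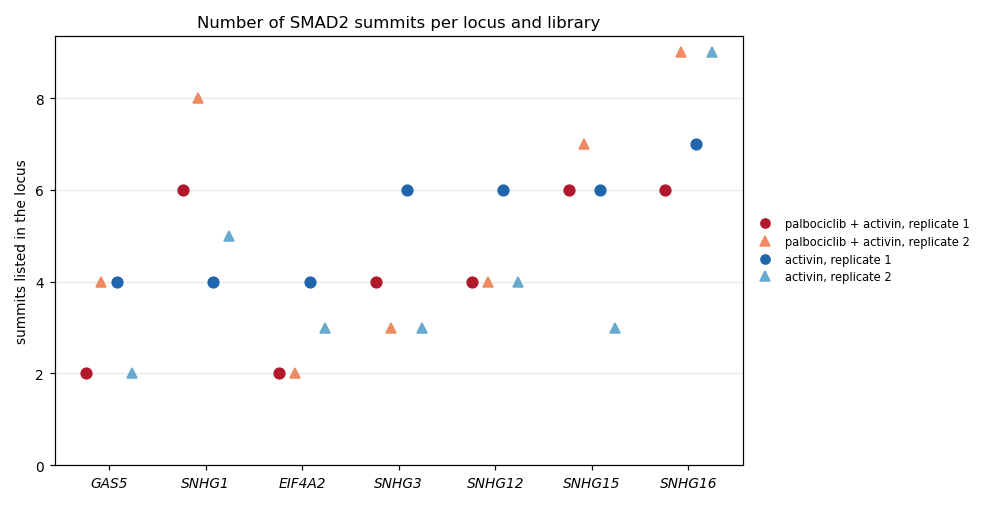
Number of SMAD2 summits within each locus, one point per library, palbociclib libraries in red left of activin libraries in blue. Counts run from 2 to 9, and both palbociclib points lie above both activin points at SNHG1 alone and below them at EIF4A2 alone.

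The treatments were furthest apart at the 3′ side of GAS5, on the score share of the second summit. Both activin libraries had a strong second summit past its 3′ end, on chromosome 1 at 173831952 and 173831821, or 1.05 and 1.18 kb beyond the span. It scored 188 and 220 and ranked 518 and 377 in the activin lists. Neither palbociclib library had a summit there, and the nearest one lay 2945 bp away. The strongest palbociclib summits on that side were at 173828876 and 173828172, with scores of 9.55 and 8.61 and ranks of 30582 and 32405. Relative to the 5′ summit of the same list, the 3′-side summit scored 1.56% and 1.63% in the palbociclib libraries, against 48.9% and 56.9% in the activin libraries. Of the 595 regions within the strongest 1.5% of both activin lists, 6 (1.01%) had no summit in either palbociclib library, and the GAS5 region is one of them. In the other direction this held for 2 of 745 regions (0.268%), none of them in the 7 loci. Each summit is a single base of a peak whose width was not analysed here, so a missing summit is not missing SMAD2. Whether the signal past GAS5 was merged into a wider peak in the palbociclib libraries was not tested.

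SNHG1 showed a second summit at its 3′ end in every library, of lower rank with palbociclib. It scored 169 and 153 in the palbociclib libraries, with ranks of 2069 and 2089, against 162 and 184 in the activin libraries, with ranks of 784 and 639. It lay 0.066 to 0.303 kb past the span. Relative to the 5′ summit it scored 36.1% and 36.7% in the palbociclib libraries, against 51.2% and 54.2% in the activin libraries. The groups did not overlap in rank or in this share, while the 3′ scores themselves overlapped and the 5′ scores were higher in both palbociclib libraries, as was the score at the strongest 1% of the whole lists. Its position followed the replicate number, not the treatment: on chromosome 11 it stood at 62618934 in palbociclib replicate 1 and 62618930 in activin replicate 1, and at 62618707 in palbociclib replicate 2 and 62618697 in activin replicate 2, with 223 bp between the pairs.

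EIF4A2 had a strong 3′-side summit in 1 library. Activin replicate 1 listed it on chromosome 3 at 186508287, 0.287 kb past the span, with a score of 404 and rank 53, or 63.0% of the 5′ score. Activin replicate 2 had only a weak summit, 1.58 kb past the span, with a score of 11.2, and neither palbociclib library had a summit between 1 kb inside the 3′ end and 5 kb past it. The strong summit therefore rests on activin replicate 1. At SNHG3 the same library alone listed a summit at 28836863 inside the span, with a score of 141 and rank 1131.

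**Figure D4:**
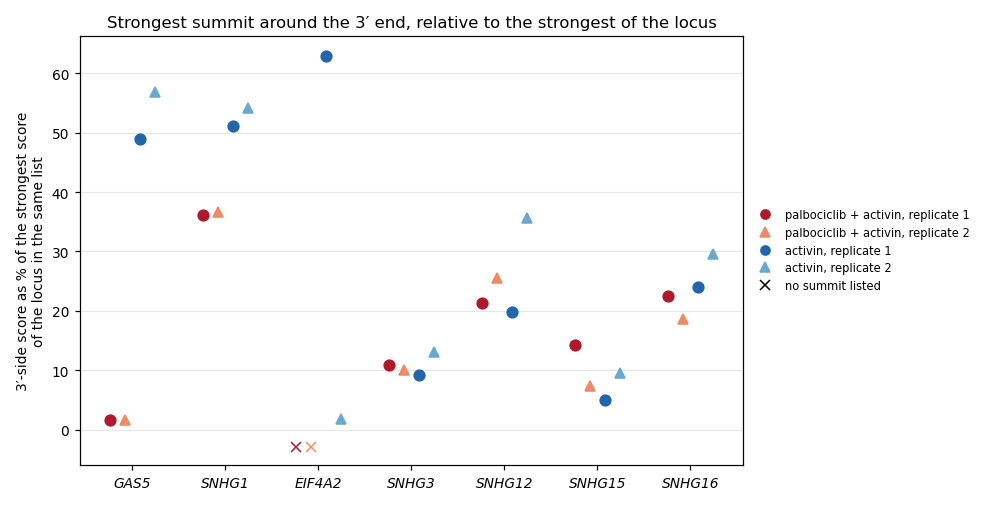
Score of the strongest summit from 1 kb inside to 5 kb past the 3′ end, as a percentage of the strongest score of the same locus and list, palbociclib libraries in red left of activin libraries in blue. GAS5 stands at 1.56% and 1.63% in the palbociclib libraries against 48.9% and 56.9% in the activin libraries, SNHG1 at 36.1% and 36.7% against 51.2% and 54.2%, and crosses mark the 2 palbociclib libraries with no such summit at EIF4A2.

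The other 4 loci also carried a summit near or past the 3′ end in every library, and at 3 of them the score shares overlapped between the treatments. At SNHG12 it scored 80.8 and 84.9 in the palbociclib libraries, against 47.04 and 99.95 in the activin libraries, or 21.3% and 25.6% of the 5′ score with palbociclib and 19.8% and 35.7% without it. At SNHG3 it stood at 10.8% and 10.1% in the palbociclib libraries, against 9.27% and 13.1% in the activin libraries. At SNHG15 it stood at 14.2% and 7.32% in the palbociclib libraries, against 4.94% and 9.52% in the activin libraries. At SNHG16 they did not overlap, with 22.5% and 18.6% in the palbociclib libraries, below 24.0% and 29.5% in the activin libraries. The 3′ scores of SNHG16 overlapped, at 65.2 and 42.5 in the palbociclib libraries and 39.99 and 52.2 in the activin libraries. The ranks overlapped too, at 8059 and 10725 in the palbociclib libraries and 8768 and 6656 in the activin libraries.

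Summits past the 3′ ends that ranked within the strongest 5% numbered 1 and 1 in the palbociclib libraries, both at SNHG1, against 3 and 3 in the activin libraries, at GAS5, SNHG1 and either EIF4A2 or SNHG12 (exact permutation p = 0.333). The EIF4A2 summit was listed in activin replicate 1 alone, and the SNHG12 summit, in activin replicate 2, had a percent rank of 4.79%. To set the second summits against the genome, the best-ranked summit 1 to 10 kb from the strongest region was taken on either side. A missing one was counted as lowest. By library, it was missing at 17.7% to 24.6% of the 491 regions within the strongest 1.5% of every list, against 0 of the 7 loci. It lay within the strongest 5% at 1 and 1 of 7 loci in the palbociclib libraries, against 4 and 3 in the activin libraries. Over the 491 regions it did so at 14.5% and 14.9% in the palbociclib libraries, against 15.3% and 15.9% in the activin libraries. A region without it in an activin library could not be called lower in both palbociclib libraries, so the shares below are not like for like. This second summit ranked lower in both palbociclib libraries at 3 of 7 loci (GAS5, SNHG1 and EIF4A2), against 11.8% of the 491 regions. It ranked higher in both at 2 of 7 (SNHG15 and SNHG16), against 28.5%, and overlapped at 2 of 7. By its score as a share of the strongest score, it stood lower in both palbociclib libraries at 4 of 7 loci (GAS5, SNHG1, EIF4A2 and SNHG3), against 18.1% of the 491 regions, and higher in both at 0 of 7, against 18.5%. The EIF4A2 calls, by rank and by share, and the SNHG3 call did not follow one summit across the libraries. At EIF4A2 the palbociclib values came from weak summits upstream of the 5′ end, with scores of 3.11 and 6.35. Its activin values came from summits past the 3′ end. At SNHG3 the 46.5% of activin replicate 1 came from the interior summit listed in that library alone. Activin replicate 2 stood at 13.1% there, against 10.8% and 10.1% in the palbociclib libraries. At SNHG16 the score share overlapped, since one activin summit past its 3′ end lay beyond 10 kb. The rank call at SNHG16 rested on the same limit. That summit, in activin replicate 2, had a percent rank of 12.3%, against the 41.4% used here. With it the ranks would overlap, since the palbociclib libraries stood at 12.8% and 16.45% and activin replicate 1 at 17.0%. The median percent rank of the best summit at 1 to 10 kb over the loci was 13.1% and 17.0% in the palbociclib libraries, against 2.20% and 17.6% in the activin libraries. Over the 491 regions it was 30.2% and 28.6% in the palbociclib libraries, against 34.3% and 32.0% in the activin libraries. The score share was added, and the limit of 1.5% set, after the ranks of the loci were known.

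Regions particular to one treatment were few and mostly weak. Of the 77 regions in the loci, 4 (5.19%) were found in both palbociclib libraries alone, against 5.29% of all regions, and 3 (3.90%) in both activin libraries alone, against 2.22%. The palbociclib regions lay upstream of EIF4A2 (186498677 to 186498859, scores of 3.11 and 6.35), inside SNHG15 (45023462 to 45023572, 4.64 and 11.4, and 45024683 to 45024794, 3.64 and 13.3) and inside SNHG16 (74555262 to 74555457, 5.08 and 8.0). Each had an activin summit 229 to 923 bp away. Beside the GAS5 region, the activin regions lay inside SNHG1 (62620976 to 62621069, scores of 6.60 and 15.0) and past EIF4A2 (186509577 to 186509663, 3.90 and 11.2). Their nearest palbociclib summits were 2042 and 8139 bp away. A summit in a single library made up 42 of the 77 regions (54.5%), against 50.8% of all regions.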

How the data were processed

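Reads were processed with Bowtie 1.1.0, Picard and MACS2 2.0.9 on hg19, per the submitters' processing notes; filters and parameters were not stated there. The authors deposited 1 list of single-base summits per library, so peaks were called per library. The deposited score was read as −log10 q, since the lowest score is 1.31 and a q of 0.05 is 1.30. Only chromosomes 1 to 22 and X were used, and summits were given 1-based coordinates, ranked within each list (ties share the better rank), and chained into regions at gaps of up to 200 bp.

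The members and lists were chosen with earlier results of these data known. All 7 loci were named, with the strongest region of each, regions of one treatment alone and further regions within the strongest 5% of a list. Spans are those of the member rule; RefSeq gene lengths (GRCh38.p14) run from 3.67 to 7.58 kb, against spans of 4 to 9 kb. All 7 members matched that gene table and 6 the promoter table. The strand of SNHG15 is general knowledge. Other host genes were not analysed here, for want of coordinates on hg19. Groups were compared with exact two-sided permutation tests over libraries, and the labels do not say whether replicates were separate cultures, so their spread may be technical. Alternatives varied the minimum score, distance around spans, list length, chaining gap, windows, replicates and a replicate block. The code was tested on simulated data. Python 3.11.15, numpy 2.4.6, pandas 2.3.3, scipy 1.17.1 and matplotlib 3.10.9 were used.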

Additional observations from a re-analysis of the deposited data

How the results depend on the processing

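The number of summits in the loci did not keep its direction. Its log2 ratio of 0.02 became −0.11 with a minimum score of 5, −0.13, −0.17 and −0.016 with 0, 2 and 10 kb around the spans, −0.39 at equal list lengths, and −0.14 to 0.21 without each library in turn. Without palbociclib replicate 2 it was −0.14 and without activin replicate 2 −0.14. Regions in both palbociclib libraries alone (4) became 2 with a minimum score of 5, at equal lengths and with a gap of 100 bp, and 0 with a gap of 1000 bp. Those in both activin libraries alone (3) became 1 with 0 kb around the spans and 4 at equal lengths. They outnumbered the palbociclib regions at equal lengths and with a gap of 1000 bp (0 palbociclib and 3 activin regions). Leaving out each library gave 5 to 15 and 4 to 17 such regions, by construction, since the reduced group then needs, or must lack, a summit in 1 library only. The count of loci with more summits in both palbociclib libraries (1) was 0 with 0 kb and at equal lengths, and 1 to 2 without each library. The count ranked higher (5) was 1 at equal lengths and 5 to 6 without each library. The strongest summit lay within 1 kb of the 5′ end at all 7 loci without each library (7 to 7), within 0.5 kb at 1 locus, and within 2 kb at 7. The share of 15-kb windows with more summits in both palbociclib libraries (11.3%) was 10.8% and 11.9% in windows of 10 and 20 kb, and 19.2% to 28.8% without each library. The second summit ranked lower in both palbociclib libraries at 3 to 4 loci without each library and at 4 with equal lengths, while the share of strong regions that did so (11.8%) was 18.8% to 24.4% and 20.3%. The distances of 0.5 and 2 kb and the alternatives for the second summit were chosen after seeing the data. With the replicate block, which compares libraries of the same number, regions with a palbociclib summit alone averaged 17.5 a pair and those with an activin summit alone 17.0, the share of windows was 13.7%, the log2 ratio was 0.02, and the counts of 1 and 5 loci were kept. The labels do not say whether the numbers pair the samples. Over the 23476 regions found in every library, the deviations in log percent rank of libraries with the same number correlated at −0.0519. This value leaves out regions missing from a library, so it cannot decide whether libraries of the same number were paired. Unknown read depth and peak width limit every count here.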

Other observations

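In the loci, regions found in 1 library of each treatment tended to join libraries of the same replicate number. Of the 14 regions found in 1 library of each treatment, 11 (78.6%) joined libraries of the same number, among them both 3′-side regions of SNHG1. Over the series, 5801 of 11667 such regions (49.7%) did so. This was noticed after the positions were seen, and no test was run on it. The 3′-side regions of SNHG1 lay 223 bp apart, beyond the chaining gap of 200 bp. They hold 1 second summit per library, so the 14 regions are not independent.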
